A study of Mus musculus with 8 samples.

Results

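Siglec1, Sirpa, Cd33, Cd300a, Cd300lf, Pilra, Cd200r1, Trem1, Trem3 and Cd244 encode inhibitory or paired receptors of the myeloid cell surface, and their mRNA was measured on arrays of mouse macrophages in 3 activation states. The 10 genes were taken by symbol, and every probe set annotated to a single one of these symbols was used. This gave 18 probe sets of 45037 tested, and 10 genes of 18193. Cd244 was matched through its gene ID, since the annotation carries it as Cd244a. For the 6 genes with several probe sets, the one with the highest mean log2 intensity over all arrays is called the main probe set, and the others are given beside it.

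The study compared classically activated (M1), alternatively activated (M2) and unstimulated (M0) macrophages. Marrow cells of wild-type C57BL/6J mice were grown into macrophages in medium with L929 cell supernatant, a source of macrophage colony stimulating factor, and on day 7 they were moved to medium lacking it. M1 macrophages then received LPS, a bacterial cell wall component, at 100 ng/ml together with IFN-γ at 20 ng/ml, M2 macrophages received IL-4 at 20 ng/ml, and M0 macrophages received medium with no cytokine, each for 24 hours. There were 3 M1, 2 M2 and 3 M0 arrays, labelled as biological replicates from different mice, although the methods also mention replicate cultures, so that every n is a number of arrays and p-values measure the spread between these arrays. All 3 groups were thus cultured cells kept without that supernatant during activation, which limits them as models of tissue macrophages. Intensities are given in the units of the deposited table, on a linear scale. A log2 fold change is the difference of mean log2 intensities, the first-named condition minus the second, with its standard error (SE).

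Many of these receptors carry immunoreceptor tyrosine-based inhibitory motifs (ITIMs) that recruit the phosphatases SHP-1 (Ptpn6), SHP-2 (Ptpn11) or SHIP-1 (Inpp5d) and dampen kinase signalling. Paired receptors have close relatives with similar ectodomains but short tails, which signal through adaptors such as DAP12 (Tyrobp) and the Fc receptor γ chain (Fcer1g). The genes of a family often lie side by side, and their ligands are sialylated glycans, lipids of dying cells, or surface proteins such as CD47 and CD200. Macrophages use them to set how strongly they respond to microbes and to healthy or dying cells.

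Arrays of a condition correlated at 0.994 to 0.997 over all probe sets, and array medians lay between 38.9 and 40.5 units, so that 40.0 units serves here as the array median. All 6 macrophage markers examined, among them Csf1r and Adgre1, were above the array median on all 8 arrays. Their summed intensity was 37970 to 40260 units in M1, 32740 to 35460 units in M2 and 46250 to 49430 units in M0 macrophages. Of these markers, Cd68 and Mertk were called lower in M1 against M0 macrophages (log2 fold change -0.72 and -0.85). Adgre1, Mertk and Fcgr1 were called lower in M2 against M0 (-1.08, -1.08 and -3.28). Against M0, all 5 M1 markers (Nos2, Il12b, Il6, Tnf and Il1b) were called higher in M1 macrophages, and all 5 M2 markers (Retnla, Chil3, Mgl2, Mrc1 and Ccl22) in M2 macrophages. Il6 was also called higher in M2 (2.77, adjusted p = 0.00498, a call lost without M2 replicate 2) and Ccl22 in M1 macrophages (2.86, adjusted p = 4.03e-07). In bulk RNA, fewer cells expressing a gene and less RNA per cell cannot be told apart.

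M1 and M2 macrophages differed in which receptors were raised or lowered. Against M0 macrophages, Cd33, Cd300lf, Pilra, Trem1 and Trem3 were higher and Cd300a, Cd200r1 and Sirpa were lower in M1 macrophages. In M2 macrophages Cd200r1 was higher and Cd300lf, Pilra and Trem3 were lower, all by their main probe sets. Siglec1 was lower in M2 macrophages by its other probe sets (log2 fold change -1.36 and -1.89 against M0), but was not called by the main one. Cd300lf, Pilra, Trem3 and Cd200r1 therefore moved in opposite directions from M0 in the 2 activated states, with Cd200r1 going the other way from the rest. The plot of intensities by array shows every value of the main probe sets.

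**Figure D1:**
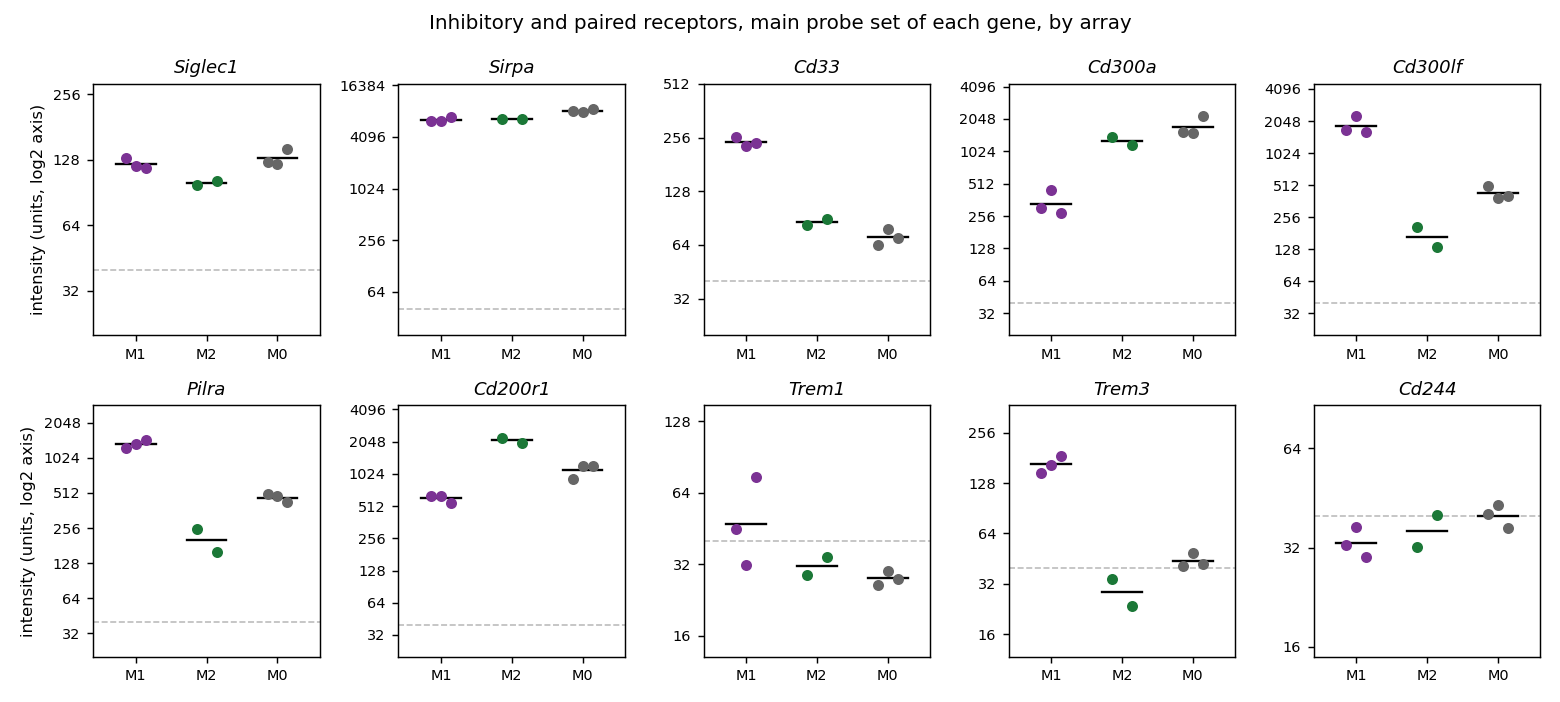
Intensity of the main probe set of each of the 10 receptor genes on each array (points; log2 axis, in units), in 3 M1, 2 M2 and 3 M0 arrays, with the geometric mean of each condition (black bar) and the array median of 40.0 units (dashed line). Cd300lf, Pilra and Trem3 were high in M1 and low in M2 macrophages, Cd200r1 was the reverse, Cd300a was lowest in M1 macrophages, and Sirpa, Siglec1 and Cd244 differed little by these probe sets.

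Probe sets were called with limma at an adjusted p under 0.05, adjusted over all 45037 probe sets. In M1 against M0 macrophages, 6 of the 18 receptor probe sets were called higher, where 10.2% of all probe sets were, and 5 were called lower, where 10.2% were. With a change of at least 2-fold as well, 4 were higher and 1 was lower, against 2.1% and 2.46% of all probe sets. In M2 against M0 macrophages, 2 were called higher and 5 lower, against 6.32% and 5.85%. By the t-test that the methods name, with adjustment, 0 were called in either direction in M2 against M0 macrophages, where 0.353% of all probe sets were higher and 0.246% lower. By limma with a change of at least 2-fold as well, 4 were called lower (all probe sets: 1.42%) and none higher (all probe sets: 1.43%). With no fold limit, 3 of 18 were higher at an unadjusted limma p under 0.05 and 3 by a t-test with no adjustment.

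In M1 against M2 macrophages, 6 receptor probe sets were called higher and 4 lower, where 8.87% and 10.1% of all probe sets were. At least 2-fold, 5 were higher and 3 lower, against 2.5% and 3.09%. The conditions did not overlap between arrays for 11 of 18 receptor probe sets in M1 against M0, 12 in M2 against M0 and 13 in M1 against M2 macrophages, which is 61.1%, 66.7% and 72.2%. Over all probe sets, 35%, 41.1% and 41.1% did not overlap. The median absolute log2 fold change of the receptor probe sets was 0.82, 0.40 and 0.85 in these 3 comparisons, and that of all probe sets was 0.14, 0.15 and 0.16.

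**Figure D2:**
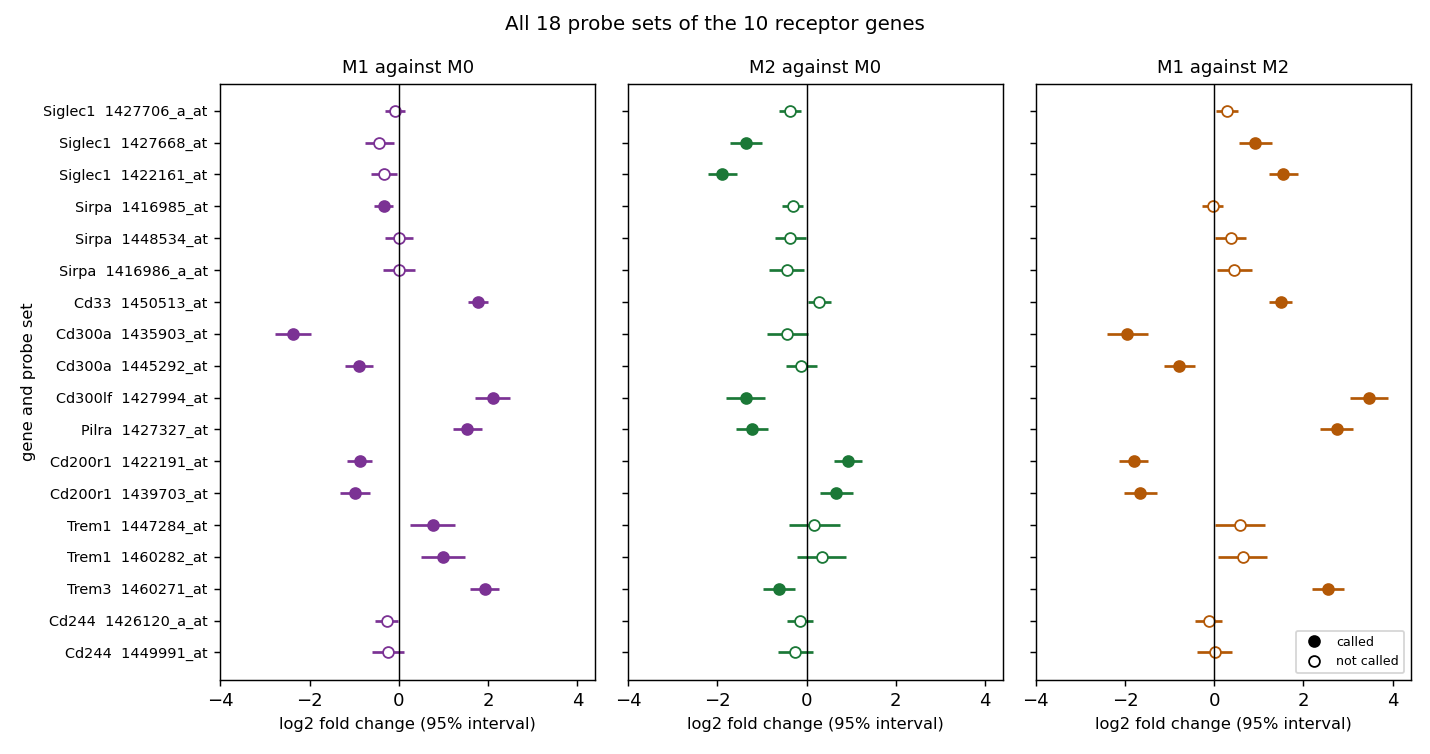
Log2 fold change of each of the 18 probe sets (point) with its 95% interval from limma (line), for M1 against M0, M2 against M0 and M1 against M2 macrophages, with filled points for probe sets called at an adjusted p under 0.05. The probe set of Cd300lf stands at 2.10 in M1 and at -1.36 in M2 macrophages against M0, and the 3 probe sets of Siglec1 spread between -1.89 and -0.38 in M2 against M0.

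Cd300lf differed most between M1 and M2 macrophages among the 10 main probe sets. It encodes an ITIM receptor of the CD300 family that binds lipids such as ceramide and phosphatidylserine, and in the mouse it is the entry receptor of murine norovirus. Its intensity was 1686, 2299 and 1626 units in M1, 207.5 and 135 units in M2 and 505, 390.3 and 406 units in M0 macrophages. The 3 conditions did not overlap, with M1 arrays on top and M2 arrays at the bottom. The log2 fold change was 2.10 (SE 0.18, adjusted p = 3.92e-06) in M1 against M0 and -1.36 (SE 0.20, adjusted p = 6.34e-04) in M2 against M0 macrophages, which share the M0 arrays here and throughout. The M2 call was lost with intensities under 64 units set to 64 (adjusted p = 0.059) and by the adjusted t-test (adjusted p = 0.147), at the same log2 fold change. M1 macrophages held 11 times the intensity of M2 macrophages, a log2 fold change of 3.46 (SE 0.20, adjusted p = 9.98e-08).

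Pilra, the ITIM member of the paired immunoglobulin-like type 2 receptors, behaved alike. It gave 1257, 1350 and 1450 units in M1, 252 and 161 units in M2 and 498, 482 and 426 units in M0 macrophages. Every M1 array lay above every M0 array, and both M2 arrays lay below. Log2 fold changes were 1.53 (SE 0.15, adjusted p = 1.29e-05) in M1 against M0, -1.22 (SE 0.17, adjusted p = 4.17e-04) in M2 against M0 and 2.75 (SE 0.17, adjusted p = 1.75e-07) in M1 against M2 macrophages. Its activating partner Pilrb1, which lies next to it on chromosome 5 and signals through DAP12, gave 1047, 1234 and 1537 units in M1, 159 and 115 units in M2 and 707, 641 and 609.8 units in M0 macrophages. The order of the conditions was the same for both partners, with log2 fold changes for Pilrb1 of 0.95 in M1 against M0, -2.27 in M2 against M0 and 3.22 in M1 against M2 macrophages (adjusted p = 0.000711, 3.53e-06 and 5.82e-08, limma).

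The sequences before the start sites of both Pilr genes are shown because the partners moved in the same directions. RefSeq promoter windows (GRCm38.p6) were matched for 6 of the 10 receptors, and the 250 bases before the start of each were searched. The Pilra window and the Pilrb1 window share a stretch of 196 bases, chr5:137836279-137836474 for Pilra and chr5:137858104-137858299 for Pilrb1, both on the minus strand. Of these bases, 192 (98%) are identical. The stretch lies at -196 to -1 from the start of Pilra and at -250 to -55 from that of Pilrb1. It was cut at the Pilra start and at the far edge of the Pilrb1 window, so likeness beyond it was not assessed. Capitals mark the 4 bases that differ.
Pilra: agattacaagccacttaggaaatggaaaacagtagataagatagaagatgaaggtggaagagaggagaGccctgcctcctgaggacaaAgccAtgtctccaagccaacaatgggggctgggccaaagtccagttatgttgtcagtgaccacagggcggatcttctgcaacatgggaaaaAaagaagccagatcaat
Pilrb1: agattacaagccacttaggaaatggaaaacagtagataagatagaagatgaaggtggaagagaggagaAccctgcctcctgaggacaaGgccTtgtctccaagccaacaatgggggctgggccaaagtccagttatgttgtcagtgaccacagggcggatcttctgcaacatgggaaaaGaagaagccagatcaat
Counted from 1 at the 5′ end of the stretch, with the Pilra base first, the differences are G69A, A89G, A93T and A180G. From position 19 on, both hold GAAATGGAAA, a match to the core of the interferon-stimulated response element searched as GAAANNGAAA on both strands, which 2.98% of 32851 mouse windows of this length hold. The Pilra window also holds a match to the PU.1-IRF composite, searched as GGAANNGAAA on both strands, from -209, which 2.3% of windows hold. It lies before the stretch, and the Pilrb1 bases that would align with it fall outside the searched window. These 2 motifs share their last 4 letters, and a match is a description of the letters only. Near-identical genes can share array probes, and whether RNA of one Pilr gene reached the probe set of the other was not tested.

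Cd300a, the other inhibitory CD300 receptor among the 10 genes, went the opposite way from Cd300lf in M1 macrophages. Its main probe set gave 302, 451 and 271 units in M1, 1396 and 1177 units in M2 and 1547, 1520 and 2183 units in M0 macrophages. M1 arrays lay far below the rest, and the M2 arrays lay just under the lowest M0 array. This was a log2 fold change of -2.37 (SE 0.19, adjusted p = 2.50e-06) in M1 against M0 macrophages, an intensity 5.18 times lower. The M2 value against M0 was -0.43 (SE 0.21, adjusted p = 0.248), with a 95% interval of -0.89 to 0.03, and was not called. A second probe set gave log2 fold changes of -0.89 in M1 against M0 (adjusted p = 5.46e-04) and -0.11 in M2 against M0 macrophages (adjusted p = 0.741).

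Of the 6 CD300 genes measured, 5 lie in the order Cd300a, Cd300lb, Cd300ld, Cd300c2 and Cd300lf on chromosome 11. The other, Cd300lg, was below the array median on all arrays and was not called (log2 fold change -0.11 in M1 and 0.14 in M2 against M0, adjusted p = 0.633 and 0.609). Cd300lb and Cd300ld encode short-tailed relatives that signal through adaptors. Cd300ld gave 323.5, 387 and 313 units in M1, 4231 and 4002 units in M2 and 1611, 1701 and 1754 units in M0 macrophages. Its log2 fold change was -2.31 (SE 0.11, adjusted p = 3.17e-08) in M1 against M0 and 1.29 (SE 0.12, adjusted p = 1.7e-05) in M2 against M0 macrophages, the reverse of Cd300lf in both. Cd300lb gave 224, 367 and 237 units in M1, 3186 and 3452 units in M2 and 1693, 1821 and 1882 units in M0 macrophages. It was lower in M1 and higher in M2 macrophages against M0, with log2 fold changes of -2.74 and 0.88 (adjusted p = 1.89e-07 and 0.00641), and the M2 call was lost without M2 replicate 2. Cd300c2 fell by 1.40 on the log2 scale in M1 against M0 macrophages and stood at 0.12 in M2 against M0 (adjusted p = 2.86e-06 and 0.639). Of the 5 genes in that order, 4 were thus called lower in M1 against M0 macrophages and Cd300lf was called higher.

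**Figure D3:**
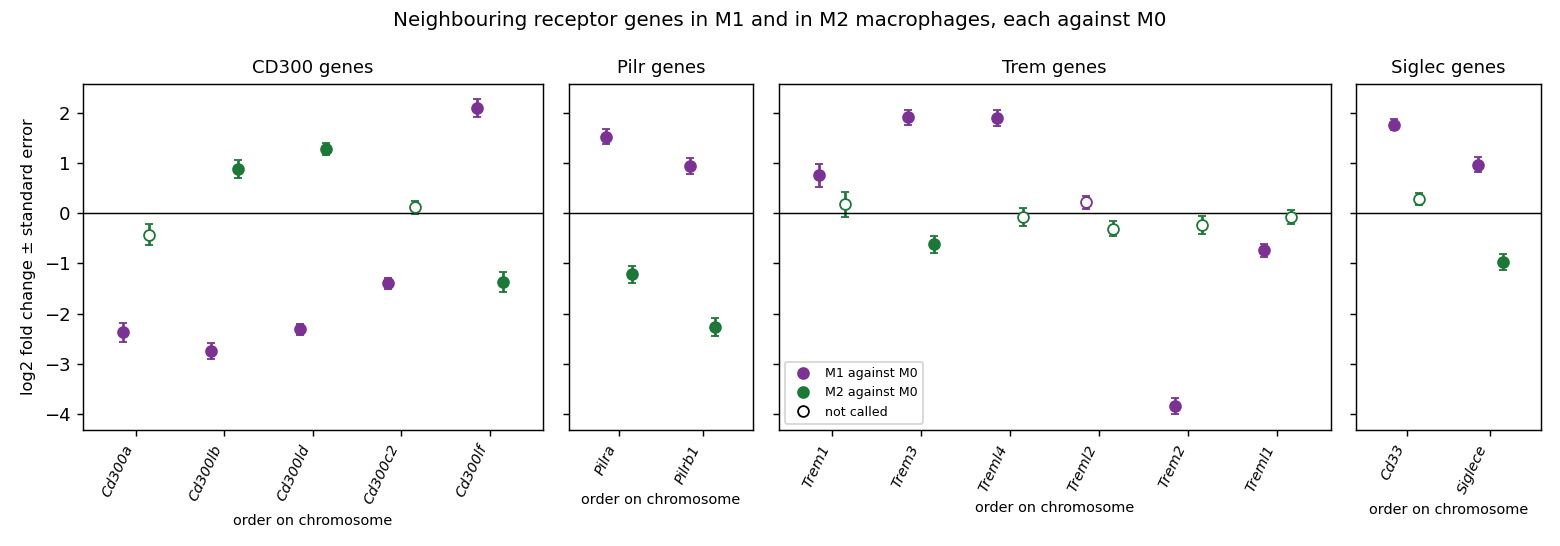
Log2 fold change against M0 (point, with bars of 1 SE) in M1 and M2 macrophages for CD300, Pilr, Trem and Siglec genes in their order on the chromosome, with open points for genes not called at an adjusted p under 0.05. Cd300lf rises alone in M1 macrophages among the 5 CD300 genes plotted, Pilra and Pilrb1 run in parallel, and in the Trem group Trem1, Trem3 and Treml4 lie above 0 in M1 macrophages while Trem2 and Treml1 lie below.

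The windows of Cd300lf (chr11:115133993-115134242) and Cd300ld (chr11:114989887-114990136), both on the minus strand of GRCm38.p6 and both from RefSeq, are shown because these relatives changed in opposite directions. Each holds the 250 bases before the start, with matches in capitals.
Cd300lf: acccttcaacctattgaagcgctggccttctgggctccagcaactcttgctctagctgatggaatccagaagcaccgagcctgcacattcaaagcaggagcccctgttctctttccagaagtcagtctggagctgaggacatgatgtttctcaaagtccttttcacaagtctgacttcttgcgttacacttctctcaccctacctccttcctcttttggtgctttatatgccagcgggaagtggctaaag
Cd300ld: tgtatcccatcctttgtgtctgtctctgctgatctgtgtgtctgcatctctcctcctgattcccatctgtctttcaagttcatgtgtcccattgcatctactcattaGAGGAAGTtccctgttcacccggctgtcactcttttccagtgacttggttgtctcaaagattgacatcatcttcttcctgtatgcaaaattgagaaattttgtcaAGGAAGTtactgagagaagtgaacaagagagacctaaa
The Cd300lf window held no match to any of 7 motifs searched on both strands, among them GAGGAAGT for PU.1, GAAANNGAAA and TTCNNNNGAA for STAT6-type sites. The Cd300ld window held GAGGAAGT from -143, which 2.44% of windows hold, and AGGAAGT, the ETS core contained in it, there and again from -38, which 7.69% of windows hold. The absence of these letters from a window says nothing of sites elsewhere.

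Cd200r1 was the only one of the 10 receptors called higher in M2 than in M0 macrophages. It binds CD200 and has no ITIM, and it restrains myeloid cells through the docking protein Dok2 and the Ras GTPase-activating protein Rasa1. Its main probe set gave 633, 640.1 and 545 units in M1, 2235 and 1997 units in M2 and 914, 1225 and 1220 units in M0 macrophages. The 3 conditions did not overlap, with M2 arrays highest and M1 arrays lowest. The log2 fold change was -0.88 (SE 0.13, adjusted p = 3.52e-04) in M1 against M0, 0.93 (SE 0.14, adjusted p = 0.00111) in M2 against M0 and -1.80 (SE 0.14, adjusted p = 2.11e-06) in M1 against M2 macrophages. The second probe set gave 44.3, 47.2 and 30.1 units in M1, 129 and 121 units in M2 and 79.3, 83.1 and 73.9 units in M0 macrophages. It was called in the same directions, with log2 fold changes of -0.98 in M1 and 0.67 in M2 against M0 (adjusted p = 4.35e-04 and 0.0212), and its M2 call was lost without M0 replicate 3 or either M2 array.

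The ligand and the signalling partners of Cd200r1 also changed. Cd200 gave 1488, 1035 and 962 units in M1, 32.2 and 36.1 units in M2 and 38.2, 34.5 and 34.1 units in M0 macrophages. It lay below the array median on every M2 and M0 array, and the M1 log2 fold change against M0 was 5.003 (SE 0.15, adjusted p = 1.19e-09). Dok2 gave 489.6, 581 and 554.5 units in M1, 2895 and 2348 units in M2 and 1312, 1515 and 1513 units in M0 macrophages. Its log2 fold change was -1.42 in M1 and 0.85 in M2 macrophages against M0 (adjusted p = 3.34e-06 and 0.000962). Rasa1 gave 450.4, 469.5 and 409.8 units in M1, 999.9 and 1027 units in M2 and 553, 716 and 724 units in M0 macrophages. Its log2 fold change was -0.58 in M1 and 0.62 in M2 macrophages against M0 (adjusted p = 0.00396 and 0.00921), and the M2 call was lost without either M2 array. In M1 macrophages the ligand was thus higher while the receptor, Dok2 and Rasa1 were lower. In M2 macrophages the receptor, Dok2 and Rasa1 were higher and Cd200 stood at -0.06 against M0 (adjusted p = 0.882). Among the relatives of the receptor, Cd200r4 was not called in either activated state, and Cd200r3 stayed below the array median.

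**Figure D4:**
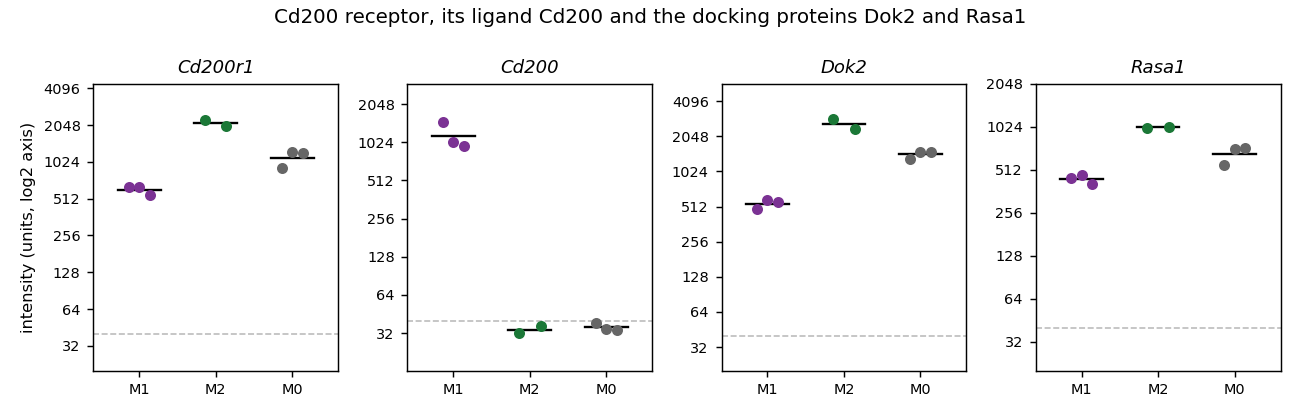
Intensity on each array (points; log2 axis, in units) of Cd200r1, of its ligand Cd200 and of Dok2 and Rasa1, with the geometric mean of each condition (black bar) and the array median of 40.0 units (dashed line). Cd200r1, Dok2 and Rasa1 are lowest in M1 and highest in M2 macrophages, and Cd200 is above the array median in M1 macrophages only.

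The Siglecs bind sialic acids on glycans. Cd33, a Siglec of myeloid cells that in humans carries ITIMs, gave 257, 228.5 and 239 units in M1, 82.5 and 89.1 units in M2 and 64.1, 78.6 and 69.7 units in M0 macrophages. All M1 arrays lay well above the others, and both M2 arrays lay above the highest M0 array by a small margin. Cd33 had a log2 fold change of 1.77 (SE 0.11, adjusted p = 2.34e-07) in M1 against M0 and 1.49 (SE 0.12, adjusted p = 1.97e-06) in M1 against M2 macrophages. Its M2 value against M0 was 0.28 (SE 0.12, adjusted p = 0.169), with a 95% interval of 0.02 to 0.54, and was not called. Siglece, the ITIM Siglec that follows Cd33 in the order of chromosome 7 among the genes compared here, moved up by 0.97 in M1 and stood at -0.97 in M2 macrophages against M0 on the log2 scale (adjusted p = 0.000372 and 0.00182). Cd22, best known as an ITIM Siglec of B cells, gave 109, 121 and 106 units in M1, 375 and 382 units in M2 and 313, 311.5 and 339 units in M0 macrophages, a log2 fold change of -1.52 (SE 0.10, adjusted p = 3.78e-07) in M1 against M0. The B cell markers were read beside it: of 4, 1 was below the array median on all arrays and 1 above, and their sum was 124.0 to 170.1 units in M1, 166.1 to 169.0 units in M2 and 177.1 to 200.1 units in M0 macrophages. Cd79b was itself called lower in M1 against M0 macrophages, at -0.92 (adjusted p = 0.00647), the direction of Cd22. Cd79a, Ms4a1 and Pax5 were not called in that comparison, at -0.05, 0.07 and 0.07 (adjusted p = 0.855, 0.752 and 0.755, limma). The part of these markers in the Cd22 result was not tested. Siglecf, a Siglec known from eosinophils, was called higher in M2 than in M0 macrophages, at 1.26 (adjusted p = 5.68e-05), but lay below the array median on all arrays, as did 3 of 4 eosinophil markers. The other marker, Ccr3, spanned 48.5 to 105.6 units in M0 macrophages. Against M0 it was called lower in M1, at -2.21 (adjusted p = 7.16e-05), and stood at -0.78 in M2 macrophages (adjusted p = 0.122). The part of these markers in the Siglecf result was not tested.

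Siglec1, also called sialoadhesin or CD169, is a large Siglec without an ITIM that macrophages use to bind sialylated cells and particles, and its 3 probe sets did not give the same call. The main probe set gave 129.8, 119.5 and 117 units in M1, 98.3 and 102 units in M2 and 125.5, 122 and 143 units in M0 macrophages. Its log2 fold change in M2 against M0 macrophages was -0.38 (SE 0.11, adjusted p = 0.0509) and was not called, although the arrays did not overlap. Another probe set gave 76.0, 104 and 73.2 units in M1, 29.6 and 27.3 units in M2 and 102, 98.2 and 116 units in M0 macrophages. Here both M2 arrays lay below the array median and all others above it, with a log2 fold change of -1.89 (SE 0.15, adjusted p = 5.22e-06) in M2 against M0 macrophages. The third probe set gave -1.36 (adjusted p = 1.99e-04). In M1 against M0 macrophages none of the 3 probe sets was called, with log2 fold changes of -0.09, -0.44 and -0.34 (adjusted p = 0.632, 0.062 and 0.114), of which the last 2 had an unadjusted limma p under 0.05, by their 95% intervals of -0.77 to -0.11 and -0.63 to -0.04. In M1 against M2 macrophages, 2 probe sets were called, at 0.92 and 1.55 (adjusted p = 0.00186 and 1.13e-05), and the main one was not, at 0.28 (adjusted p = 0.114).

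The enzymes that build, attach and remove the sialic acids seen by Siglecs were taken as a list of 19 genes. In M1 against M0 macrophages 6 were higher and 4 lower, where 13.7% and 11.5% of all genes (1 probe set a gene) were. In M2 against M0 macrophages 4 were higher and 3 lower, against 8.03% and 6.43% of all genes, and without M2 replicate 2 only 1 was lower. The α2,6-sialyltransferase St6gal1, which makes the glycan that Cd22 binds, gave 78.4, 90.8 and 62.1 units in M1, 1311 and 1411 units in M2 and 981, 1411 and 1464 units in M0 macrophages. M1 arrays were far below the rest, with a log2 fold change of -4.05 (SE 0.17, adjusted p = 1.2e-08) against M0. Of the α2,3-sialyltransferases, St3gal1, St3gal3 and St3gal5 rose in M1 macrophages against M0 (log2 fold change 2.24, 1.90 and 2.58), and St3gal2 and St3gal4 fell (-0.57 and -0.71). In M2 against M0 macrophages, St3gal1 and the disialic acid transferase St8sia1 were the largest rises of the list, at 1.06 and 1.09 (adjusted p = 0.000723 and 0.000169). The other St3gal1 probe set was not called in that comparison. St8sia1 was dim, with 17.86 to 23.15 units in M0 and 43.6 to 46.3 units in M2 macrophages, and its 2 other probe sets were called higher too. The sialidase Neu1 stood at 0.76 in M1 and -0.51 in M2 macrophages against M0 (adjusted p = 0.000294 and 0.0168), and its M2 call did not survive the loss of M2 replicate 2, M0 replicate 1 or M0 replicate 3. Neither of the 2 other Neu1 probe sets was called in the same direction. St3gal5 stood at -0.48 in M2 against M0 macrophages (adjusted p = 0.0102), a call lost without M2 replicate 2 and not shared by its other probe set. A replicate block ended the calls of Neu3 in M1 and Slc35a1 in M2 against M0 (adjusted p = 0.0632 and 0.0549). The list's median log2 fold change was 0.07 in M1 and 0.10 in M2 macrophages against M0, and that of all genes was 0.02 and 0.01.

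Sirpa, the ITIM receptor through which CD47 on other cells limits phagocytosis, changed little. Its main probe set gave 6275, 6243 and 7087 units in M1, 6671 and 6651 units in M2 and 8207, 8005 and 8571 units in M0 macrophages. M1 and M2 arrays overlapped, and all 5 lay below the M0 arrays. The log2 fold change was -0.34 (SE 0.10, adjusted p = 0.0241) in M1 against M0 and -0.31 (SE 0.11, adjusted p = 0.0884) in M2 against M0 macrophages. The M1 call was lost without M0 replicate 1, 2 or 3 and without M1 replicate 1 or 2, where the log2 fold change ranged between -0.40 and -0.31 over all left-out arrays. The other 2 probe sets stood at 0.00 and 0.01 in M1 against M0 (adjusted p = 0.99 and 0.983, 95% intervals -0.31 to 0.32 and -0.35 to 0.37), so the direction of the M1 difference rests on 1 of 3 probe sets. Sirpb1a, its relative that lacks ITIMs, was lower in both states, with log2 fold changes of -0.89 in M1 and -1.95 in M2 macrophages against M0 (adjusted p = 0.00318 and 3.9e-05). Thbs1, which encodes a secreted ligand of CD47, was higher in M1 macrophages against M0 by 3.35 (adjusted p = 6.39e-05). Cd47 stood at 0.06 in M1 and -0.37 in M2 macrophages against M0 (adjusted p = 0.74 and 0.041), and its M2 call was lost without any one of 6 arrays (M0 replicates 1, 2 and 3, M1 replicate 1 and both M2 replicates) and with a term for the replicate number (adjusted p = 0.109), while 3 of its 4 other probe sets were called lower in M2 too.

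Of the 11 ligands measured for these receptors, Cd200 and Thbs1 were higher and Cd48 and Npdc1 lower in M1 against M0 macrophages, 18.2% each way, which is near the 13.7% and 11.5% of all genes. Cd47 alone was called in M2 against M0, as lower (all genes: 6.43%), and in M1 against M2 macrophages 3 were higher and 2 lower (all genes: 11.5% and 12.3%), or 1 lower without M2 replicate 1. Npdc1, which encodes a ligand of Pilra, gave 32.2, 36.0 and 40.0 units in M1, 65.4 and 51.7 units in M2 and 60.8, 51.2 and 60.6 units in M0 macrophages, with M1 arrays at or below the array median. The list's median log2 fold change was -0.07 in M1 and -0.05 in M2 macrophages against M0.

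Trem1 and Trem3 encode activating receptors that signal through DAP12 and amplify inflammatory responses in neutrophils and monocytes, and Trem3 is known as a working receptor in the mouse. Trem3 gave 148, 165 and 186 units in M1, 34.5 and 23.5 units in M2 and 40.9, 48.8 and 41.9 units in M0 macrophages. M1 arrays lay far above the others, and both M2 arrays lay below the array median. Trem3 had a log2 fold change of 1.92 (SE 0.15, adjusted p = 1.73e-06) in M1 against M0, -0.62 (SE 0.16, adjusted p = 0.0278) in M2 against M0 and 2.54 (SE 0.16, adjusted p = 3.03e-07) in M1 against M2 macrophages. The M2 call against M0 was lost when M2 replicate 2, M0 replicate 2 or M0 replicate 3 was left out, and with a replicate block (log2 fold change -0.59, adjusted p = 0.0781), and all M2 and M0 arrays of this probe set lay under 64 units.

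Trem1 was dim and uneven in M1 macrophages. Its main probe set gave 44.9, 31.7 and 74.5 units in M1, 28.9 and 34.4 units in M2 and 26.1, 30.1 and 27.6 units in M0 macrophages, and the second gave 53.4, 23.9 and 45.8 units in M1, 24.7 and 25.1 units in M2 and 18.3, 19.6 and 21.2 units in M0 macrophages. On both, M2 and M0 arrays were below the array median, and so was M1 replicate 2, while the other M1 arrays were above it. The log2 fold change in M1 against M0 macrophages was 0.77 (SE 0.23, adjusted p = 0.0341) by the main and 0.98 (SE 0.23, adjusted p = 0.0078) by the second probe set. The main call was lost in 5 of 8 runs with an array left out (M0 replicates 1, 2 and 3 and M1 replicates 1 and 3), and the log2 fold change over all 8 runs ranged between 0.44 and 1.05. With intensities under 64 units set to 64 it was 0.07 and was not called. In M2 against M0 macrophages neither was called, with 95% intervals of -0.39 to 0.74 and -0.21 to 0.89. Since both Trem genes are known from neutrophils, 7 neutrophil markers were read beside them. Of these, 3 were below the array median on all arrays, and their summed intensity was 238.7 to 318.4 units in M1, 224.7 to 301.6 units in M2 and 243.0 to 332.5 units in M0 macrophages. Camp was the marker that moved, at 0.56 in M1 and -0.48 in M2 macrophages against M0 (adjusted p = 0.00544 and 0.0385). The M2 call of Camp was lost in 5 of 8 runs with an array left out and with the replicate block. The part of these markers in the Trem results was not tested.

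The other Trem genes of chromosome 17 did not move as one. Trem2, a DAP12-coupled receptor for lipids and apolipoproteins, gave 459, 407 and 296 units in M1, 5424 and 4008 units in M2 and 4888, 5657 and 5944 units in M0 macrophages by its main probe set. That is a log2 fold change of -3.85 (SE 0.17, adjusted p = 1.79e-08) in M1 against M0. Its second probe set gave 57.0, 58.8 and 65.9 units in M1, 60.8 and 45.2 units in M2 and 68.7, 60.0 and 56.3 units in M0 macrophages and was not called (adjusted p = 0.937). Treml4 gave 55.7, 50.9 and 74.6 units in M1, 15.5 and 14.7 units in M2 and 17.9, 17.4 and 12.8 units in M0 macrophages, with only M1 arrays above the array median and a log2 fold change of 1.91 (SE 0.16, adjusted p = 3.35e-06) in M1 against M0. Treml1 was lower in M1 against M0 macrophages, at -0.74 (adjusted p = 0.000747). Tyrobp, the DAP12 adaptor itself, fell by 0.56 on the log2 scale in M1 against M0 macrophages (adjusted p = 0.000906) and lay above the array median on all arrays.

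Cd244, or 2B4, is a SLAM family receptor of NK cells and some T and myeloid cells that binds CD48. Its main probe set gave 32.6, 37.0 and 29.9 units in M1, 32.2 and 40.2 units in M2 and 40.3, 43.1 and 36.7 units in M0 macrophages. All 8 arrays lay close to or below the array median, and the conditions overlapped. Log2 fold changes were -0.28 in M1 and -0.15 in M2 macrophages against M0, with 95% intervals of -0.54 to -0.01 and -0.45 to 0.14 (adjusted p = 0.151 and 0.576). The second probe set was below the array median on all arrays and was not called either (-0.24 and -0.25, adjusted p = 0.385 and 0.462). Of 5 NK cell markers, 4 were below the array median on all arrays, with sums of 131.6 to 146.0 units in M1, 135.8 to 136.7 units in M2 and 125.9 to 142.8 units in M0 macrophages.

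Some SLAM relatives of Cd244 were called, and Slamf1 and Slamf6 were called in both states. Of 8 genes, 3 were higher and 2 lower in M1 against M0 macrophages (all genes: 13.7% and 11.5%), 2 higher and 1 lower in M2 against M0 (all genes: 8.03% and 6.43%), and 3 higher and 4 lower in M1 against M2 macrophages (all genes: 11.5% and 12.3%). Ly9 was called in no comparison. Without M1 replicate 2, 4 were lower in M1 against M0. Slamf1, a self-binding receptor that also senses bacteria, gave 139.6, 111 and 106 units in M1, 466 and 727 units in M2 and 42.0, 37.9 and 41.0 units in M0 macrophages. It was higher in both states, with log2 fold changes of 1.55 in M1 and 3.85 in M2 macrophages against M0 (adjusted p = 1.83e-05 and 5.13e-08). Slamf7, a self-binding receptor of activated leukocytes, was higher in M1 macrophages against M0 by 2.06 (adjusted p = 5.26e-07), and Slamf6 was higher in M1 by 2.47 and in M2 macrophages by 1.13 (adjusted p = 1.3e-06 and 0.00305). Slamf6 was dim, with 15.61 to 25.62 units in M0 and 42.43 to 45.59 units in M2 macrophages. Of its 2 other probe sets, 1 was called higher against M0 in each state. Cd48, the ligand of Cd244, gave 1312, 1861 and 1335 units in M1, 2614 and 2769 units in M2 and 2583, 2755 and 2591 units in M0 macrophages, a log2 fold change of -0.83 (SE 0.13, adjusted p = 0.00056) in M1 against M0.

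Beyond these, the 18 measured relatives of the Siglec, CD300, Sirp, Pilr, Cd200r and Trem groups had 4 genes higher and 7 lower in M1 against M0 macrophages (22.2% and 38.9%, all genes 13.7% and 11.5%). They had 3 higher and 3 lower in M2 against M0 (16.7% each, all genes 8.03% and 6.43%), and 6 higher and 7 lower in M1 against M2 macrophages (33.3% and 38.9%, all genes 11.5% and 12.3%). Their median log2 fold change was -0.19, -0.01 and -0.23, and that of all genes was 0.02, 0.01 and 0.00. Of 9 other inhibitory receptors of myeloid cells, 4 were higher and 2 lower in M1 against M0 macrophages (44.4% and 22.2%, all genes 13.7% and 11.5%). In M2 against M0 macrophages 1 was higher and 3 lower (11.1% and 33.3%, all genes 8.03% and 6.43%), the share higher being near that of all genes. Fcgr2b, the inhibitory Fc receptor, was higher in M1 by 1.29 and in M2 macrophages by 0.96 against M0 (adjusted p = 6.99e-06 and 0.000377). Pirb, an ITIM receptor for MHC class I, and Milr1, an ITIM receptor first known from mast cells, were lower in M2 macrophages against M0, at -0.83 and -1.11 (adjusted p = 0.000177 and 0.000773). Lair1, an inhibitory collagen receptor, was lower in M1 against M0 macrophages, at -1.15 (adjusted p = 0.000553). The M1 count of 4 became 2 without M0 replicate 1, M0 replicate 2, M1 replicate 1 or M1 replicate 3, as the calls of Pirb and Pecam1 were lost. The M2 count of 1 became 2 without M0 replicate 3 and with the replicate block.

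Of 9 phosphatases and docking proteins, Dok1 was higher and Inpp5d, Csk, Dok2 and Rasa1 were lower in M1 against M0 macrophages, 11.1% and 44.4% of the list against 13.7% and 11.5% of all genes. The other probe set of Inpp5d was not called against M0 in M1 or in M2 macrophages. Against M0, M2 macrophages had Dok2 and Rasa1 higher and Ptpn6 and Inpp5d lower (22.2% each, all genes 8.03% and 6.43%), with 1 higher without either M2 array and 1 lower without M0 replicate 2 or 3. Ptpn6, the phosphatase SHP-1, gave 1974, 2464 and 2180 units in M1, 1138 and 1002 units in M2 and 2733, 2374 and 2121 units in M0 macrophages. M2 arrays lay below all others, with a log2 fold change of -1.17 (SE 0.14, adjusted p = 0.000135) in M2 and -0.12 (SE 0.12, adjusted p = 0.585) in M1 macrophages against M0. Of 11 activating adaptors and kinases, 2 were higher and 3 lower in M1 against M0 (18.2% and 27.3%, all genes 13.7% and 11.5%), and 1 was higher and 6 lower in M2 against M0 macrophages (9.09% and 54.5%, all genes 8.03% and 6.43%). In M1 against M2 macrophages 8 were higher and 1 lower (72.7% and 9.09%, all genes 11.5% and 12.3%), or 5 higher without M2 replicate 1. The other probe sets of Fgr, Grb2 and Vav1 were not called in that comparison. With a replicate block, the M2 calls of Tyrobp and Hcst against M0 (adjusted p = 0.094 and 0.0578) and that of Plcg2 in M1 against M2 macrophages (adjusted p = 0.0522) were lost. The 2 that were higher in M1 against M0 became 1 without M0 replicate 2, M0 replicate 3 or M1 replicate 2, as the call of Vav1 was lost. Fyn, a Src family kinase, was the exception in M2 macrophages, with 158, 149.8 and 191 units in M1, 1006 and 922 units in M2 and 233, 264 and 227 units in M0 macrophages and a log2 fold change of 2.00 (SE 0.13, adjusted p = 9.38e-07) in M2 against M0. Pik3ap1, an adaptor of phosphoinositide 3-kinase, fell by 1.60 on the log2 scale in M2 against M0 macrophages (adjusted p = 6.26e-06).

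Genes with the pattern most like each of 8 receptors were sought over the 8 arrays among genes with a mean log2 intensity of at least 6. These arrays form 3 clusters by condition, so Pearson's r describes, for most of these receptors, likeness of the condition means above all and is given with no test. Nearest to Cd200r1 were Socs6 (r = 0.995), Rasa1 (r = 0.995) and Alyref (r = 0.993), of which Rasa1 was also on the list of docking proteins. Nearest to Pilra were Snx20 (r = 0.994), H2-M3 (r = 0.994) and Dok1 (r = 0.991). Nearest to Cd300lf were Ift22 (r = 0.997), Gbp6 (r = 0.995) and Tmem134 (r = 0.992), and Gbp6, an interferon-inducible GTPase, spanned 1019 to 1445 units in M1, 39.3 to 43.5 units in M2 and 144.4 to 196.8 units in M0 macrophages. For Trem3 they were Sephs2, Wnt6 and Gpr18 (r = 0.995, 0.995 and 0.993), for Cd33 Zcchc4, Srpr and Tapt1 (r = 0.997, 0.997 and 0.997), and for Cd300a Pgap1, Evl and the lipid droplet protein gene Plin2 (r = 0.995, 0.993 and 0.993). Sirpa was nearest to Mbp, Zdhhc14 and Clip1 (r = 0.98, 0.973 and 0.971), and Trem1 to P4hb, Crkl and Ppm1f (r = 0.967, 0.967 and 0.936). For Trem1, whose M1 arrays spread widely, r also reflects scatter among the M1 arrays. P4hb, for one, spanned 4263 to 5186 units in M1 and 4235 to 4364 units in M0 macrophages. Siglec1 and Cd244 were left out of this search, since their main probe sets were called in no comparison.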

How the data were processed

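Total RNA of 8 macrophage cultures was hybridised to Affymetrix mouse genome arrays. RMA, run by the authors in GenePattern (Expression File Creator), corrected background, aligned distributions and summarised probe sets, and they deposited intensity values on a linear scale for 45101 probe sets. RMA compresses small differences of dim probe sets, and the number of arrays limits precision. The log2 of each intensity was taken and 64 control probe sets were left out. The other 45037 were fitted with limma 3.58.1 in R 4.3.3 (lmFit and eBayes, a mean per condition, 5 residual and 6.95 prior degrees of freedom), with Benjamini-Hochberg adjustment, and the fit was tested on simulated data. Of these probe sets, 34945 had 1 gene symbol, 932 several and 9160 none in the annotation used. Of 98 entries in 7 gene lists, 86 were found. The receptors, the lists, the tests and the alternatives were chosen with earlier results of these data known. Named genes were all receptors, up to 4 called genes of a list with the largest change, and 3 genes nearest to each receptor whose main probe set was called. List genes named for their role (among them Cd47, Tyrobp, Treml1, Npdc1, St3gal2 and Camp) stand outside that rule. Sequences came from RefSeq promoter tables, and motifs were searched with Python 3.11.15. Figures were drawn with matplotlib 3.10.9. Titles share replicate numbers across conditions, but no source ties a number to a mouse. Figure legends of the study give replicates per mouse and condition, so same-numbered arrays may share a mouse, which the main fit does not model. Raw image data were not used here. A further promoter motif is not reported here.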

Additional observations from a re-analysis of the deposited data

Results flagged for a closer look

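The following genes were called in opposite directions against M0 in M1 and M2 macrophages, and the difference between the 2 states, M1 minus M2 on the log2 scale, was itself called by limma. Both comparisons share the 3 M0 arrays. Among the receptors, the difference was 3.46 for Cd300lf, 2.75 for Pilra, 2.54 for Trem3 and -1.80 for Cd200r1. The call of Trem3 in M2 against M0 macrophages was lost in 3 of 8 runs with an array left out and with a replicate block. The adjusted t-test called none of these 4 in M2 against M0 macrophages. Among their relatives the difference was 3.22 for Pilrb1, 1.94 for Siglece, -3.60 for Cd300ld and -3.62 for Cd300lb. Among other inhibitory receptors it was 1.75 for Milr1 and 1.13 for Pirb, whose M1 call against M0 was lost without any 1 of 6 arrays (M0 replicates 1, 2 and 3 and M1 replicates 1, 2 and 3) and with a replicate block (adjusted p = 0.0687). For signalling genes it was -2.27 for Dok2, -1.20 for Rasa1, -2.54 for Fyn and 1.43 for Vav1. The M1 call of Vav1 against M0 was lost without M0 replicate 2, M0 replicate 3 or M1 replicate 2. Its other probe set was not called in M1 against M0 or in M1 against M2 macrophages. For genes of sialic acid metabolism the difference was 3.06 for St3gal5, -1.42 for St3gal4 and 1.27 for Neu1. The M2 call of St3gal5 against M0 was lost without M2 replicate 2, and that of Neu1 without M2 replicate 2, M0 replicate 1 or M0 replicate 3.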

How the results depend on the processing

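The 10 main probe sets gave 30 log2 fold changes in 3 comparisons, and all 30 kept direction and call when arrays were centred on their median, when only the 2 conditions compared were fitted, and without M2 replicate 1. A replicate block treats arrays with the same title number as paired, which is possible but stated by no source. With it, the receptor probe sets called were 6 higher and 5 lower in M1 against M0, 2 higher and 4 lower in M2 against M0, and 6 higher and 4 lower in M1 against M2 macrophages. The block ended the call of Trem3 in M2 against M0 (-0.593, adjusted p = 0.0781) and changed no other call of a main probe set. The 7 pairs of arrays with the same number had deviations that correlated between -0.172 and 0.0547, and the 14 other pairs between -0.150 and 0.190. The methods' t-test with adjustment called fewer, with 3 lower in M1 against M0, 0 higher and 0 lower in M2 against M0, and 1 lower in M1 against M2 macrophages, where without adjustment it called 5, 3, 6 and 4. With adjustment it called 5.46% of all probe sets lower in M1 against M0, 0.353% higher and 0.246% lower in M2 against M0, and 1.67% lower in M1 against M2 macrophages. It ended the main calls of Sirpa and Trem1 in M1 against M0, of Cd300lf, Pilra, Cd200r1 and Trem3 in M2 against M0, and of Cd300a and Trem3 in M1 against M2 macrophages. Requiring at least 2-fold left 1 lower in M1 against M0 and 0 higher in M2 against M0 (limma called 2 with no fold limit, and 3 had an unadjusted p under 0.05), and an adjusted p under 0.01 left 1 higher in M2 against M0. With intensities under 64 units set to 64, 1 was lower in M2 against M0, and the M2 calls of Cd300lf and Trem3 and the M1 call of Trem1 against M0 were lost. Leaving out each array gave 1 to 2 higher in M2 against M0, with 1 without M0 replicate 3, M2 replicate 1 or M2 replicate 2. Sirpa changed sign in M1 against M0 by its other probe sets, to 0.009 and 0.004 (adjusted p = 0.983 and 0.99). The causes were not tested. Limits are the 2 M2 arrays, probe sets of Trem1, Trem3 and Cd244 near the array median in some or all conditions, and probe sets of 1 gene that differ.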
